A study of Mus musculus with 2 samples.

Results

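A set of 8 integrin subunit genes of natural killer (NK) cells and type 1 innate lymphoid cells (ILC1) were followed in 1 single-cell RNA library of mouse spleen: Itgal, Itgam and Itgb2, Itga1, Itga2 and Itgb1, and Itga4 and Itgb7. They were taken by symbol, and all 8 were found among the 32285 genes of the matrix, which holds 27 integrin subunit genes in all. The cells came from wild-type mice, with no treatment, and were enriched for NK cells by magnetic removal of T, B, dendritic, granulocytic, macrophage and erythroid cells, so that the other cell classes below are what that removal left. The labels name no strain, age or sex. Cells of different mice were pooled under 3 lipid tags, and the library was read with a 3′ kit that counts each captured molecule once, as a unique molecular identifier (UMI). The title of the series concerns Kir6.1, a subunit of an ATP-sensitive potassium channel, in NK cell development. No group of this library carries a change of that gene.

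An integrin is a pair of 1 alpha and 1 beta subunit in the plasma membrane, which links a cell to ligands on other cells or in the matrix and is switched between inactive and active forms from inside the cell by talin and kindlin. Itgal (CD11a) pairs with Itgb2 (CD18) as LFA-1, which binds ICAMs, and Itgam (CD11b) pairs with Itgb2 as Mac-1, the complement receptor whose surface level is used with CD27 to order mouse NK cell stages. Itga1 (CD49a) and Itga2 (CD49b) pair with Itgb1 (CD29) as collagen receptors; CD49b is a standard surface mark of mouse NK cells and CD49a of ILC1 and tissue-resident NK cells. Itga4 (CD49d) pairs with Itgb1 as VLA-4, a receptor for VCAM-1, or with Itgb7 as the receptor for MAdCAM-1 of gut vessels.

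In the GRCm38 annotation (GENCODE M21, the assembly also called mm10), 4 of the 8 genes lie on a chromosome shared with another member. Itga1 (chr13:114953096-115101964, minus strand) lies 21.0 kb from Itga2 (chr13:114833081-114932100, minus strand), with 1 annotated gene between them, and Itgal (chr7:127296260-127335138, plus strand) lies 728 kb and 63 annotated genes before Itgam (chr7:128062640-128118491, plus strand). The others are Itga4 (chr2:79255426-79333123, plus strand), Itgb1 (chr8:128685654-128733200, plus strand), Itgb2 (chr10:77530252-77565708, plus strand) and Itgb7 (chr15:102215995-102231944, minus strand). Itga1 contains Pelo on its own strand and Gm10734 on the other, and Itga4 overlaps Cerkl on the opposite strand; the use of strand and of intronic reads in the counting is not given in the sources, so reads of these overlapping genes cannot be told apart where they meet.

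The promoters of 4 members are shown, picked by their levels: Itgam and Itga4 were both higher in NK-like cells with Klrg1 than in those with Cd27, and the neighbours Itga1 and Itga2 differed in opposite directions between ILC1 and NK cells. The counts do not measure promoter activity, and no link between these sequences and the levels was tested. Each run is the 250 bases before the RefSeq start of the gene (GRCm38.p6), written 5′ to 3′ on the gene's own strand, and capitals mark short motifs found by letters on either strand. They lie at chr7:128062390-128062639 (Itgam, plus strand), chr2:79255176-79255425 (Itga4, plus strand), chr13:115101965-115102214 (Itga1, minus strand) and chr13:114932101-114932350 (Itga2, minus strand).
Itgam: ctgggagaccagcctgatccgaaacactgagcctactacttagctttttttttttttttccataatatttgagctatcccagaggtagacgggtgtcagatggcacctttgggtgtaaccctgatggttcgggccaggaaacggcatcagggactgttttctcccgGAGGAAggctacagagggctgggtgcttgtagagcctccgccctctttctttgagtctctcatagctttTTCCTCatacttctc
Itga4: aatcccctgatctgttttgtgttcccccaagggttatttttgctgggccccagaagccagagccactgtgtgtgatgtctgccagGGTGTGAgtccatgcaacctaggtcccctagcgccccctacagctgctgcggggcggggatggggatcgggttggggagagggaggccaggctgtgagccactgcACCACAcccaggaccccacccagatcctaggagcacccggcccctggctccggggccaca
Itga1: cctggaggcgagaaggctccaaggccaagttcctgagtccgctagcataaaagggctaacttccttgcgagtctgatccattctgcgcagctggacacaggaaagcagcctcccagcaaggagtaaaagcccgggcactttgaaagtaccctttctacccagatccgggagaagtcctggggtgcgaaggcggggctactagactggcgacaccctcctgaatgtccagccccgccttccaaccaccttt
Itga2: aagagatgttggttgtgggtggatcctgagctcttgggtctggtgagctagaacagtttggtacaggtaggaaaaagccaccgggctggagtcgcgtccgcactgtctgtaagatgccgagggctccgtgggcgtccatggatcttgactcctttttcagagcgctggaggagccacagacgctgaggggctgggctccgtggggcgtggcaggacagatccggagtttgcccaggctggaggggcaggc
The motifs, chosen after the sequences had been seen, were searched without mismatch and did not overlap one another in these runs: GAGGAA (ETS type), TGTGGT (RUNX type), GGTGTGA (T-box type) and CAGGTG (ZEB type). Itgam held the ETS letters 2 times, on the plus strand at 84 to 79 bases and on the minus strand at 15 to 10 bases before the start. Itga4 held the T-box letters at 165 to 159 bases and the RUNX letters, on the minus strand, at 60 to 55 bases before the start. None of the 4 motifs was found in the windows of Itga1 or Itga2. Of 32851 mouse promoter windows of this length, 23.3% held GAGGAA, 14% TGTGGT, 3.33% GGTGTGA and 17.2% CAGGTG, so a match is a description of the letters and no more. RefSeq windows were found for 6 of the 8 members; of the remaining windows, Itgb1 held GAGGAA at 9 to 4 bases before its start and Itgb7 held none.

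Of 16384 barcodes, 15742 had 500 to 6000 genes and at most 10% mitochondrial UMIs, and 11696 of these carried 1 tag (3590, 4213 and 3893 cells for tags 1, 2 and 3, with 18485480, 23091461 and 22465648 UMIs). No label ties a tag to a mouse, so p-values below measure only the spread between 3 tags of 1 library, which may be technical. Clusters were made without integrin genes, Cd27 or Klrg1. A group of 9 clusters with 7924 cells (67.7%) were NK-like, with all 10 NK markers detected, and 1 cluster of 496 cells was ILC1-like, with all 6 ILC1 markers detected. Levels are as CPM, the UMIs of a gene per 1000000 gene UMIs of the cells; a 3′ UMI count is 1 per molecule whatever the gene's length, but capture differs between genes. The classes other than the gates defined below are clusters of the same cells, so their levels are given without a test.

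In NK-like cells the 8 genes made 92.9% of the 143040 UMIs of all integrin subunits. Itga4 was the highest on the CPM scale, at 1267 ± 115 (SD over 3 tags, here and below), with 1183 to 1398 CPM over the tags. It was followed by Itgb1 at 699.5 ± 17.6, Itga2 at 463 ± 28.6, Itgb2 at 392 ± 19.0, Itgal at 345 ± 21.6, Itgam at 220 ± 3.54 and Itgb7 at 139 ± 15.5 CPM. The tags of neighbours in this order did not overlap; the closest were the lowest tag of Itgb2 (379 CPM) and the highest of Itgal (363 CPM). Itga1 was far below the other members, at 5.95, 8.39 and 7.93 CPM in tags 1, 2 and 3. In ILC1-like cells the order changed. Itga4 (575 ± 43.9 CPM) and Itgb1 (384 ± 30.4 CPM) still led, Itgb7 stood at 212 ± 18.9 CPM, above Itga2 at 167 ± 6.29 CPM, and Itga1 at 81.7 ± 4.17 CPM stood above Itgam, which was last at 16.5 ± 0.909 CPM.

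**Figure D1:**
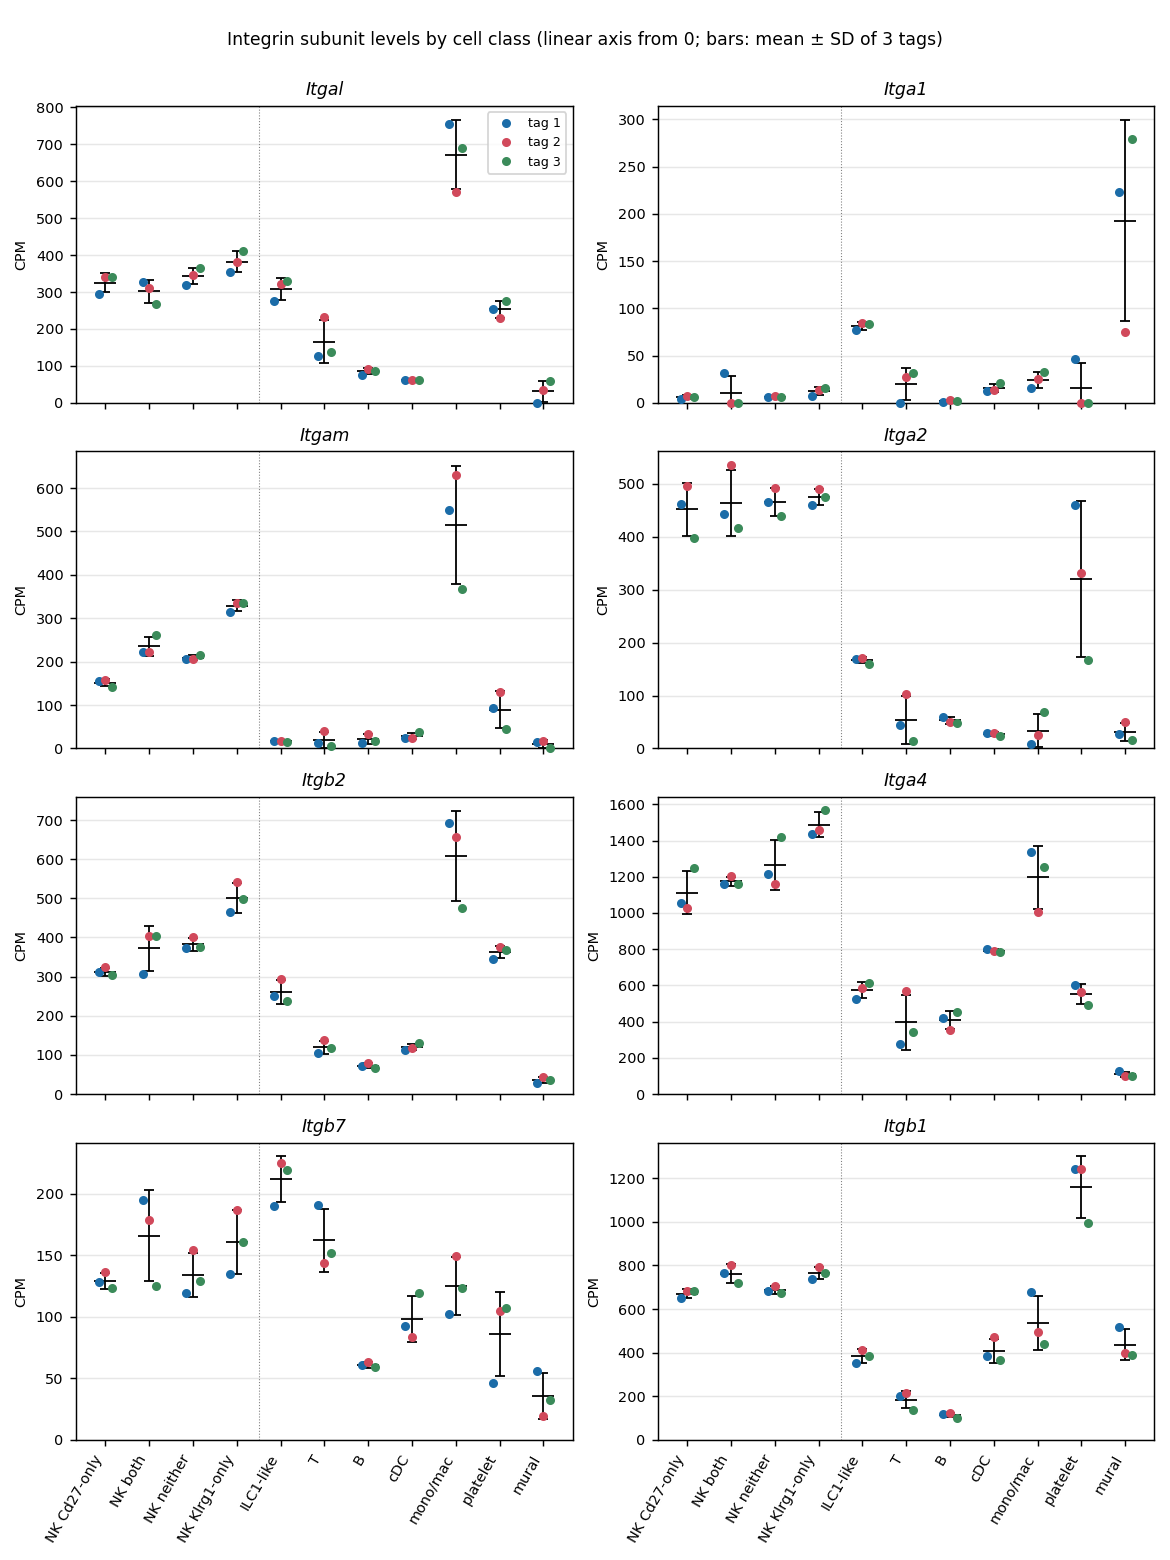
Levels of the 8 genes in CPM (linear axis from 0) in 4 sets of NK-like cells and 7 other cell classes; each point is 1 lipid tag and the bars are the mean and SD of the 3 tags. Itgam and Itga2 are high in the NK-like sets and low in ILC1-like cells, and Itga1 is highest in mural and ILC1-like cells. Itgb7 has its highest mean in ILC1-like cells, but their lowest tag (190.2 CPM) is below the highest of the NK both set (195 CPM).

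Outside NK-like and ILC1-like cells each member had its own distribution. Among the classes with over 20 cells, the 80 monocyte or macrophage-like cells had the highest Itgal (570 to 755 CPM) and the highest Itgam (367 to 631 CPM). Their Itgb2 (476 to 692 CPM) overlapped that of Klrg1-only NK-like cells. Monocytes and neutrophils are known for abundant Mac-1, and the 19 neutrophil-like cells had Itgam at 371 to 1008 CPM and Itgal at 482 to 756 CPM. The 90 platelet or megakaryocyte-like barcodes had the highest Itgb1, at 1161 ± 143 CPM, but they also carried NK marker UMIs at 6216 to 10493 CPM, against 16651 to 17798 CPM in NK-like cells, so the part of NK RNA in their Itga2 (168 to 461 CPM) and Itgam (45.9 to 131 CPM) was not tested. Mural or fibroblast-like cells, the collagen-rich stroma of the spleen, had Itga1 at 223, 75.4 and 279.7 CPM in tags of 9, 101 and 35 cells. They overlapped ILC1-like cells through tag 2, which held most of the mural cells, and the higher values rest on few cells. B cell-like cells had Itga4 at 408 ± 49.5 CPM and T cell-like cells at 397 ± 152 CPM, and the tags of these classes overlapped. Conventional dendritic cell-like cells had Itga4 at 791 ± 7.54 CPM, apart from the classes on either side of it in the order.

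The share of cells with a UMI gave the same picture at 1 depth. Each cell was thinned to 2500 UMIs, which left out shallower cells (7227 of 7924 NK-like, 486 of 496 ILC1-like and 632 of 713 B cell-like cells remained). B cell-like cells, most of which should lack Itgam, Itga1 and Itga2, gave the background, in which released RNA and doublets with NK cells were not told apart (their NK marker sum was 1395 to 2262 CPM): 3.32% had an Itgam UMI (exact 95% interval 2.07 to 5.03, counting error only), 6.80% an Itga2 UMI (4.97 to 9.06) and 0.158% an Itga1 UMI (0.00401 to 0.878). Itgam in ILC1-like cells, 2.47% (1.28 to 4.27; 7.66% before thinning), was within that background, so it was not detectable above it at this depth. Itga2 in ILC1-like cells, 30.2% (26.2 to 34.5; 46.8% before thinning), lay above it and below the 64.2% (63.0 to 65.3; 77.9% before thinning) of NK-like cells. Itga1 was found in 16.0% (12.9 to 19.6) of ILC1-like cells, 26.2% before thinning, and in 1.74% (1.45 to 2.07) of NK-like cells, 2.84% before thinning. The Itga1 share of NK-like cells was thus low, but above that of B cell-like cells. Median depths before thinning were 3980.5 UMIs in NK-like, 5383 in ILC1-like and 3908 in B cell-like cells.

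**Figure D2:**
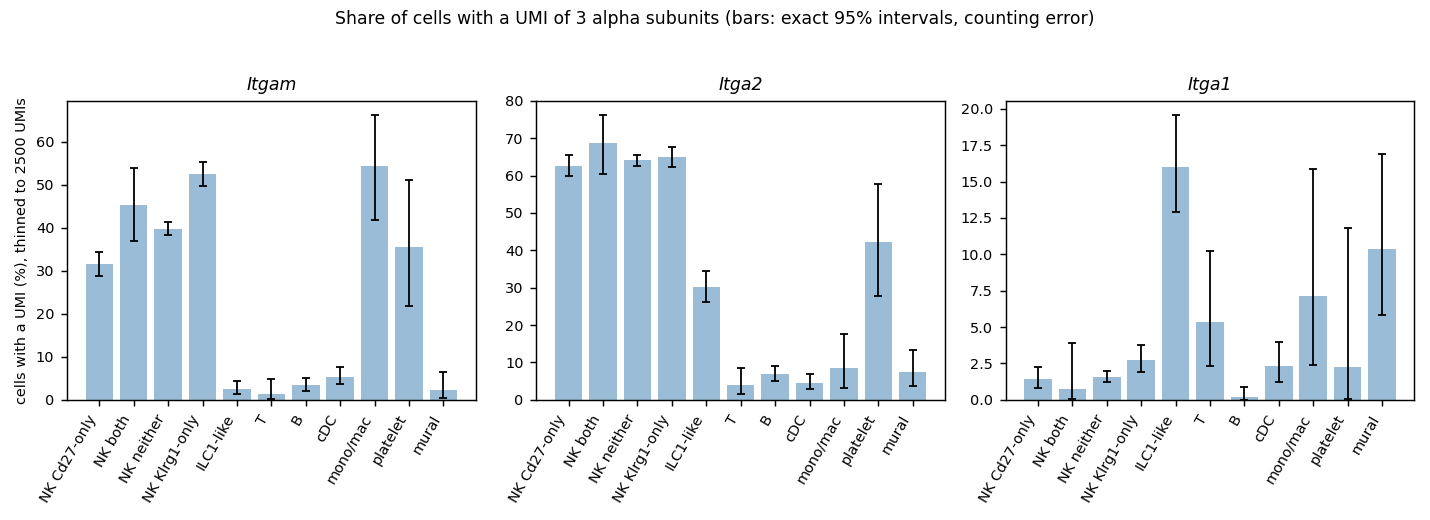
Percent of cells with at least 1 UMI of Itgam, Itga2 and Itga1 after thinning each cell to 2500 UMIs, in the NK-like sets and other classes (bars from 0; error bars are exact 95% intervals, counting error only). ILC1-like cells lie at the level of B cell-like cells for Itgam, between B cell-like and NK-like cells for Itga2, and at 16.0% for Itga1.

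To compare early with late NK-like cells without using a member as a gate, NK-like cells were split by thinned UMIs of Cd27, a TNF receptor family member of earlier NK cells, and Klrg1, a lectin-like receptor of late NK cells. This gave 1150 Cd27-only, 141 double-positive and 1318 Klrg1-only cells, with 4618 cells that had neither. The gate rested on a single UMI in 80.1% of the Cd27-only and 68.5% of the Klrg1-only set. Median depth was 4829 UMIs in Cd27-only and 3751.5 in Klrg1-only cells. UMIs were summed per tag and set and fitted across all genes with edgeR's quasi-likelihood test, blocked by tag, and p-values were adjusted by Benjamini-Hochberg. As a check of the sums, Cd27 was at 306 ± 16.0 and 24.0 ± 4.55 CPM, and Klrg1 at 18.8 ± 3.04 and 443 ± 7.90 CPM, in Cd27-only and Klrg1-only cells; the gates fix both.

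Of the 8 integrin genes, 6 were lower in Cd27-only than in Klrg1-only cells at an adjusted p under 0.05, and none was higher. Of all 10036 genes tested, 5.78% were lower and 7.91% higher by the same rule (13.7% either way). The median log2 difference was -0.34 over the 8 members and 0.0 over all genes tested. In 6 of the 8, all but Itga2 and Itgb7, the 3 tags of the sets did not overlap; 15% of all genes had such lower tags and 10.5% such higher tags.

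Among the called members, Itgam and its partner Itgb2 had the largest differences. Itgam, the alpha subunit of Mac-1, stood at 155, 157 and 142 CPM in Cd27-only and at 314, 336 and 336 CPM in Klrg1-only cells. Every tag was lower in Cd27-only cells, by 2.11-fold in the fit (log2 -1.08, SE 0.06, edgeR adjusted p = 9.0e-21). Itgb2, its beta subunit, stood at 311, 324 and 304 CPM against 466, 542 and 499 CPM, also with no overlap (log2 -0.65, SE 0.05, edgeR adjusted p = 2.7e-15). Itgal, the other alpha partner of Itgb2 here, differed much less. It stood at 296, 339.9 and 340.4 CPM in Cd27-only and 353, 382 and 411 CPM in Klrg1-only cells (log2 -0.19, SE 0.05, edgeR adjusted p = 0.0087), and the call was lost without tag 1 (adjusted p = 0.073) or tag 3 (0.072). Because Itgam moved more than Itgal, the ratio of Itgal to Itgam UMIs was 1.91, 2.16 and 2.4 in Cd27-only cells and 1.12, 1.14 and 1.22 in Klrg1-only cells. The set with both UMIs (1.32 pooled) and that with neither (1.65 pooled) lay between these. The share of cells with an Itgam UMI after thinning was 31.5% (exact 95% interval 28.8 to 34.3) in Cd27-only and 52.5% (49.8 to 55.2) in Klrg1-only cells; before thinning it was 47.9% and 67.9%.

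Of the beta 1 and beta 7 group, Itga4 showed the clearest change. It stood at 1057, 1029.9 and 1248 CPM in Cd27-only and 1438, 1457 and 1567 CPM in Klrg1-only cells, with no overlap (log2 -0.39, SE 0.04, edgeR adjusted p = 1.8e-10). Cerkl, which overlaps Itga4 on the opposite strand, was lower too (25.1 ± 1.36 against 47.2 ± 10.4 CPM, log2 -0.84, edgeR adjusted p = 3.3e-05). Itgb1, the shared beta subunit, differed by little: 649, 684 and 681 CPM against 739, 793 and 766 CPM (log2 -0.15, SE 0.04, edgeR adjusted p = 0.011), a call lost without tag 1 (adjusted p = 0.069) or tag 2 (0.11). Itgb7 stood at 128, 136 and 123 CPM against 135, 187 and 161 CPM, so that the tags overlapped although each tag was lower in Cd27-only cells. Its call (log2 -0.29, SE 0.08, edgeR adjusted p = 0.0082) was lost without tag 2 (log2 -0.18, adjusted p = 0.35) or tag 3 (adjusted p = 0.063).

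The collagen-binding alpha subunits were not called. Itga2 stood at 462, 497 and 398 CPM in Cd27-only and 461, 491 and 475 CPM in Klrg1-only cells, so that the sets overlapped. The fitted log2 difference was -0.03, with a 95% interval of -0.13 to 0.07 (edgeR adjusted p = 0.80), and its sign changed without tag 3 (0.05). Itga1, with 40 UMIs in Cd27-only and 69 in Klrg1-only cells, stood at 3.96, 7.60 and 6.38 CPM against 7.72, 13.5 and 15.7 CPM (log2 -0.95, SE 0.35, edgeR adjusted p = 0.060). It passed the threshold under 4 of the 12 alternatives in which it could be tested; with gates of at least 2 UMIs it did not pass the filter on low counts.

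Markers of other cells also differed between the sets. The T cell marker sum (9 genes) was 243 to 337 CPM in Cd27-only cells, with Cd4 at 0, and 205 to 239 CPM in Klrg1-only cells, with Cd4 and Cd8b1 at 0. Cd3d was at 22.4 ± 12.9 against 5.62 ± 1.36 CPM and Cd3g at 17.3 ± 6.99 against 2.31 ± 1.63 CPM. The B cell sum (110.1 to 116 against 66.1 to 73.8 CPM), the progenitor sum (82.9 to 131 against 31.9 to 38.8 CPM, with Mpo at 0 in both), the ILC1 sum (119 to 167 against at most 113 CPM) and the endothelial sum (50.5 to 67.3 against 47.3 to 49.1 CPM, with Kdr at 0 in both) were also higher in every Cd27-only tag. The plasmacytoid dendritic cell sum (395 to 473 against 571 to 648 CPM, with Siglech at 0 in both) and the platelet sum (6.44 to 8.51 against 11.7 to 15 CPM) were lower. The part of these lists in the integrin differences was not tested. Without cells holding a Cd3d, Cd3e or Cd3g UMI, the 6 calls were made again, with Itgam at a log2 of -1.03, Itgb2 at -0.64 and Itga4 at -0.39. The NK marker sum itself was 12761 to 14147 CPM in Cd27-only and 22467 to 23747 CPM in Klrg1-only cells.

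**Figure D3:**
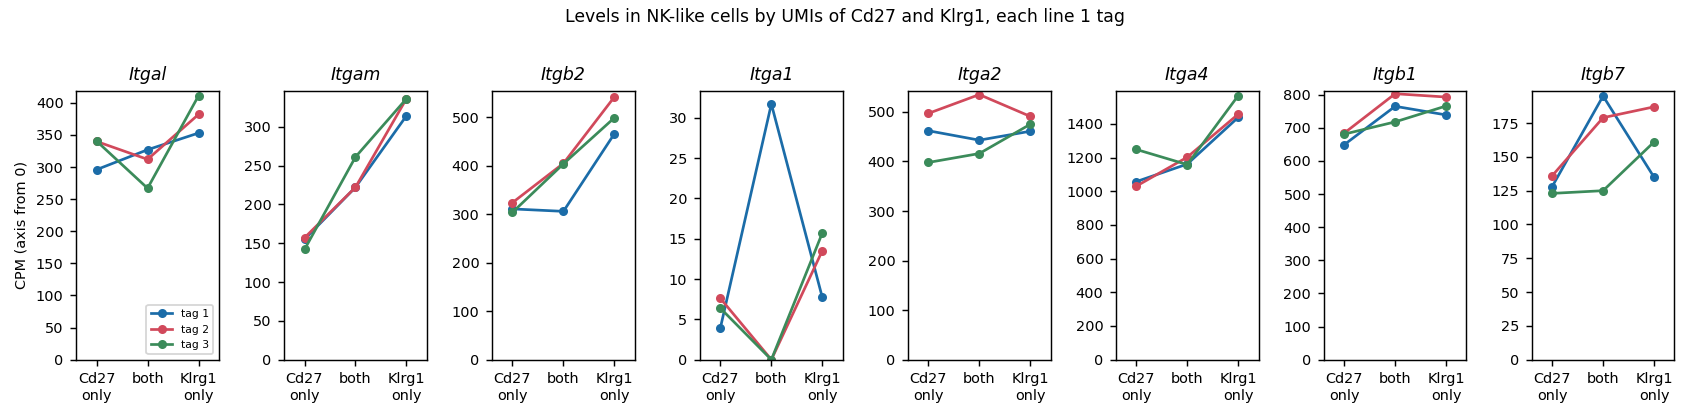
Level of each member in CPM (vertical axes from 0) in NK-like cells with a Cd27 UMI only, both UMIs, or a Klrg1 UMI only; each line joins the sums of 1 lipid tag. Itgam is higher at each step in every tag, Itgb2 and Itga4 are highest in the Klrg1-only set, Itga2 shows no common direction, and Itga1 in the double-positive set rests on 6 UMIs.

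The double-positive set split the difference into steps, at low depth (681563 UMIs in 141 cells). Itgam stood at 222, 222 and 261 CPM in this set, above every Cd27-only and below every Klrg1-only tag. From Cd27-only to double-positive cells, Itgam alone of the 8 was called (log2 -0.57 for Cd27-only, SE 0.13, edgeR adjusted p = 0.0066); 0.409% of all genes were lower and 0.957% higher by this rule (1.37% either way). Itgam and Itgb1 had lower, non-overlapping tags, as did 7.33% of all genes, and no member had higher ones (9.09%). Left out in turn, each of tags 1, 2 and 3 ended this call (adjusted p = 0.058, 0.073 and 0.14). From double-positive to Klrg1-only cells, Itgam (log2 -0.51, SE 0.12, edgeR adjusted p = 0.011), Itgb2 (-0.43, SE 0.10, 0.0077) and Itga4 (-0.33, SE 0.07, 0.0021) were called lower in the double-positive set, as were 0.389% of all genes, with 0.588% higher and 0.976% either way. These 3 and Itgal (log2 -0.33, adjusted p = 0.17) had lower, non-overlapping tags, as did 9.08% of all genes; no member had higher ones (6.32%). Without tag 1 all of these calls were lost (adjusted p = 0.10, 0.16 and 0.063 for Itgam, Itgb2 and Itga4), and without tag 2 those of Itgam (0.32) and Itgb2 (0.12). Itga4 in double-positive cells stood at 1161, 1202 and 1158 CPM, within the range of Cd27-only cells.

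Within the 9 NK-like clusters, which were built without the integrins, Itgam had the widest range of the 8 genes, given as a description. It went from 54.0 CPM (exact Poisson 95% interval 45.6 to 63.6, counting error only) in the cycling cluster led by Top2a and Mki67 to 380.3 CPM (359.5 to 402) in the cluster led by Entpd1, Klra9 and Klrg1, a ratio of 7.04. Itga1 went from 4.15 to 20.7 CPM, highest in the cluster with Klrb1b, Cd226 and Cd28 among its leading genes. Itga2, Itga4, Itgal and Itgb1 were each lowest in the cycling cluster and highest in the Entpd1 cluster, with ratios of 2.53, 2.27, 1.74 and 1.40. Without the cycling cluster, the 6 calls between Cd27-only and Klrg1-only cells were made again.

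ILC1 and NK cells were compared by gates on single genes, since a cluster set against the rest is no test. ILC1-gated cells had thinned UMIs of at least 2 of Il7r, Tmem176a, Tmem176b and Rora and none of Eomes, and NK-gated cells had Eomes and none of those 4; both had Ncr1 or Klrb1c and no UMI of T, B, dendritic, monocyte or neutrophil gate genes. This gave 292 ILC1-gated cells (72, 95 and 125 per tag; median 5221 UMIs) and 3013 NK-gated cells (median 4157 UMIs). Of the ILC1-gated cells 71.9% lay in the ILC1-like cluster, 20.2% in NK-like clusters and 6 cells in the mural cluster. Another 6 lay in the unnamed cluster with Il7r, Il23r, Ccr6 and Cd4 among its leading genes, whose integrin levels are given under other observations. Of the NK-gated cells 96% lay in NK-like clusters. Genes outside the gates followed them: Cxcr6, a chemokine receptor of ILC1, was at 71.9 ± 13.9 against 2.07 ± 0.0714 CPM and Tnfsf10, the death ligand TRAIL, at 66.6 ± 14 against 7 ± 0.402 CPM.

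All 8 integrin genes differed between these gates at an adjusted p under 0.05, 2 higher and 6 lower in ILC1-gated cells. Of 10103 genes tested, 8.57% were higher and 7.17% lower (15.7% either way). The median log2 difference was -0.63 over the members and 0.0 over all genes. Tags did not overlap in 2 members that were higher (16.2% of all genes) and in 5 that were lower (15.6% of all genes).

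The 2 collagen-binding alpha subunits went in opposite directions. Itga1 stood at 47.8, 105 and 71.6 CPM in ILC1-gated cells (137 UMIs) and at 6.68, 4.97 and 3.30 CPM in NK-gated cells (76 UMIs). All tags were higher, 15-fold in the fit (log2 3.90, SE 0.28, edgeR adjusted p = 5.3e-16), and tag 2 was the highest. Itga2 stood at 146, 229.9 and 164 CPM against 462, 517 and 447 CPM, so that it was 2.64-fold lower but still present in ILC1-gated cells (log2 -1.40, SE 0.11, edgeR adjusted p = 3.9e-15). Of the UMIs of Itga1 and Itga2 together, Itga1 made 1.58% in NK-like and 33.1% in ILC1-like cells. Their common partner Itgb1 was at 429 ± 14.2 against 699.8 ± 21.1 CPM (log2 -0.71, SE 0.09, edgeR adjusted p = 3.3e-08), lower in all tags. Pelo, which lies inside Itga1, was at 10.9 ± 2.26 against 7.49 ± 2.18 CPM (log2 0.50, edgeR adjusted p = 0.54).

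The beta 2 group was lower in ILC1-gated cells, and unequally so. Itgam stood at 54.6, 22.5 and 39.3 CPM against 207, 224 and 231 CPM, the largest decrease of the 8 (5.95-fold; log2 -2.57, SE 0.17, edgeR adjusted p = 8.6e-18). Over gated cells that lay in ILC1-like or NK-like clusters alone, its log2 difference was -3.59. Itgb2 stood at 262, 299 and 239.9 CPM against 378, 419 and 368 CPM (log2 -0.55, SE 0.10, edgeR adjusted p = 2.6e-05), lower in every tag. Itgal stood at 257, 289 and 327 CPM against 326, 356 and 379 CPM, so that the tags overlapped. Its difference (log2 -0.28, SE 0.10, edgeR adjusted p = 0.042) lost the threshold without any one of tags 1, 2 and 3 (adjusted p = 0.13, 0.17 and 0.084) and passed in 4 of 15 alternatives. In ILC1-like cells the Itgal to Itgam UMI ratio was 16.3, 18.8 and 21.5 over the tags, against 1.49, 1.60 and 1.63 in NK-like cells. The ILC1-like ratio rests on 48 Itgam UMIs, at 16.4 CPM against 18.9 CPM in B cell-like cells with tags pooled. Its denominator is thus at the background level, and its size is not well set.

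The 2 possible beta partners of Itga4 diverged. Itga4 stood at 644, 563 and 622 CPM in ILC1-gated and 1266, 1230 and 1437 CPM in NK-gated cells (log2 -1.11, SE 0.09, edgeR adjusted p = 7.2e-14), 2.16-fold lower. Cerkl was lower as well (22.8 ± 5.85 against 36.6 ± 3.97 CPM, log2 -0.72, edgeR adjusted p = 0.033). Itgb7, in contrast to Itgb1, was higher: 187, 224 and 209 CPM against 113, 137 and 118 CPM, with no overlap (log2 0.75, SE 0.11, edgeR adjusted p = 4.3e-07). All of the members but Itgal passed under each of 15 alternatives.

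**Figure D4:**
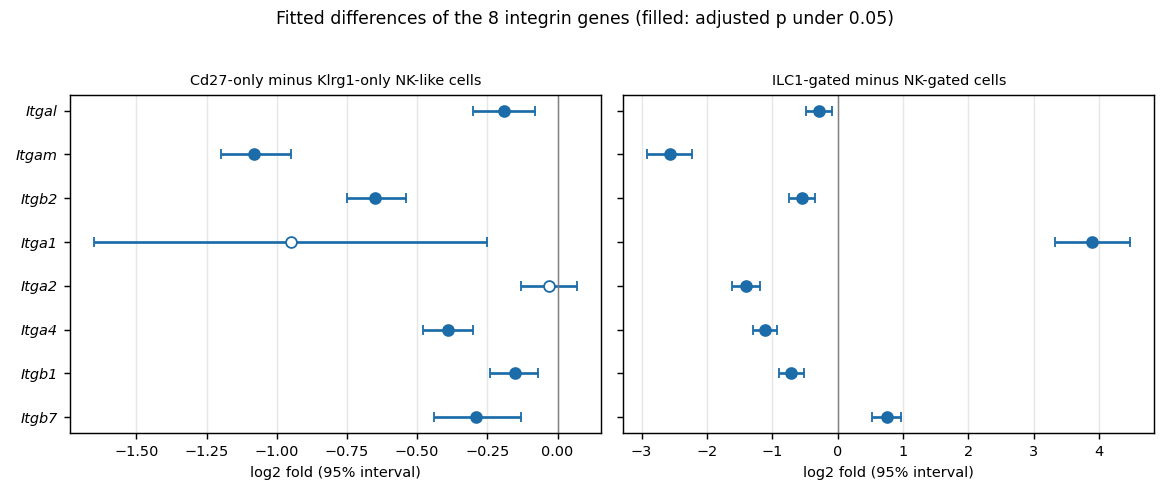
Fitted log2 differences with 95% intervals from edgeR for Cd27-only minus Klrg1-only NK-like cells (left) and ILC1-gated minus NK-gated cells (right); filled points have an adjusted p under 0.05, and the horizontal scales differ. Itgam lies to the left in both panels, Itga1 and Itgb7 lie to the right only in the right panel, and Itga2 is at 0 within its interval in the left panel.

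Markers of other classes differed between these gates as well. The mural marker sum (5 genes, all detected in ILC1-gated cells) was 2.28, 1019 and 313 CPM in ILC1-gated tags and 2.29 to 4.46 CPM in NK-gated tags, where Pdgfrb was at 0, and mural cells themselves hold Itga1. Without cells that had a UMI of a mural marker, Itga1 differed by a log2 of 3.88 and Itgb7 by 0.80, and the ILC1-like cluster, with a mural sum of 1.07 to 1.63 CPM, had Itga1 at 76.9 to 84.4 CPM. The T cell sum was 442 to 448 against 211 to 241 CPM, with Cd3e, Cd3g, Cd8a, Cd8b1 and Cd5 at 0 in ILC1-gated cells. Most of it was Trbc2, at 423 against 206 CPM with tags pooled. Cd4 was higher too (16.3 against 0 CPM), but Trac (5.07 against 9.79 CPM) and Cd3d (1.13 against 6.1 CPM) were lower. Cd3d, Cd3e and Cd3g are genes that the gates exclude. The dendritic cell sum was 246 to 394 (Cd209a at 0) against 57.8 to 70.5 CPM. The erythroid (368 to 576 against 218 to 241 CPM), progenitor (173 to 257 against 71.4 to 105 CPM) and endothelial sums (99.6 to 157 against 46.7 to 56.9 CPM, with Cdh5 at 0 in both) were higher too, and the plasmacytoid dendritic cell sum was lower (297 to 378, with Siglech at 0, against 473 to 554 CPM). The part of these lists in the integrin differences was not tested. Over gated cells in ILC1-like and NK-like clusters alone, Itga1 (log2 4.23), Itgb7 (0.86), Itga2 (-1.58) and Itga4 (-1.29) were called in the same directions.

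A broad list of 44 genes was taken for the control of integrins from inside the cell and their links to actin. Not every gene on it turns integrins on or ties them to actin, as it also holds Sharpin, Shank1, Itgb1bp1, Adap1, Mdga1 and Tgfbr1. Between Cd27-only and Klrg1-only cells 34 were tested: 5 rose and 6 fell in the Cd27-only set relative to the Klrg1-only set, against 7.91% and 5.78% of all genes. The median log2 difference of the list was -0.05. Rap1b, the small GTPase that brings talin to integrins, had the largest decrease, at 456 ± 27.9 against 780.3 ± 51.5 CPM (log2 -0.74, edgeR adjusted p = 3.8e-18). Its effector Apbb1ip (RIAM; log2 -0.30), the adaptor Fyb (ADAP; -0.28) and the actin linker Flna (-0.33; adjusted p = 0.13 with no tag block) were lower too. Rasgrp1, an exchange factor for Ras, was higher, at 92.0 ± 8.55 against 49.9 ± 1.84 CPM (log2 0.92, edgeR adjusted p = 6.8e-10), as were the Rap exchange factor Rapgef6 (0.45), the adaptor Skap1 (0.43) and Adap1 (1.07; without tag 2 0.70, adjusted p = 0.14). The list thus held members in both directions, including the partner adaptors Skap1 and Fyb.

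Between ILC1-gated and NK-gated cells, 35 of the 44 were tested, and 2 were higher and 13 lower in ILC1-gated cells, against 8.57% and 7.17% of all genes; the list's median log2 difference was -0.19. Syk, a kinase downstream of integrins and activating receptors, was at 92.3 ± 10.8 against 208 ± 7.90 CPM (log2 -1.19, edgeR adjusted p = 1.6e-10). Flna (log2 -0.66) and the Rap exchange factor Rapgef1 (-0.65) were lower, as was the integrin-linked kinase partner Lims1 (-0.50). Lower values of Rasgrp2 (-0.56), Cyth1 (-0.45) and Adap1 (-1.33), and the higher value of Actn1 (1.87), an actin crosslinker on 17 UMIs in ILC1-gated cells, each lost the threshold without at least 1 tag: Rasgrp2 and Cyth1 without tag 2 (adjusted p = 0.074 and 0.053), Adap1 without tag 1 (-0.91, 0.17) and Actn1 without tag 1 (0.078) or tag 2 (0.17). Of 25 ligand genes only Icam1 and Icam2 were abundant enough to be tested in the NK-like sets, and neither passed. In the ILC1 comparison 3 were tested and F11r, the junctional adhesion molecule A that LFA-1 can bind, passed on 22 UMIs in ILC1-gated against 2 in NK-gated cells (edgeR adjusted p = 2.0e-07).

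Genes whose pattern was most like each member were sought over 13 classes with tags pooled, among 9928 genes, by Pearson's r of log2(CPM + 10). These are descriptions without a test, and the classes share 1 library and differ in depth. Itgam was most like Rap1gap2 (r = 0.971), Map7d1 (0.929) and N4bp1 (0.927), and Itga1 most like Gdpd5 (0.944), Epas1 (0.916) and Qpct (0.892). Itga2 was nearest to Adamts14 (0.983), Klri2 (0.977) and Klre1 (0.977), the last 2 being receptors also used as NK markers. Itgal had Itgb2 itself, its partner, among its nearest genes (0.943), with Zswim6 (0.949) and Myo1f (0.948). Itgb2 was nearest to Fcer1g (0.964), Gsap (0.949) and Cd244a (0.947), Itga4 to Arrdc1 (0.924), Sft2d1 (0.913) and Madd (0.907), Itgb1 to Tspo (0.912), Lrrfip2 (0.891) and Rap2a (0.882), and Itgb7 to Cd48 (0.933), Hltf (0.930) and B4galnt1 (0.925). Among the members, Itga1 had the lowest values, at -0.519 with Itga4 and -0.416 with Itgam.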

How the data were processed

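The deposited matrix holds raw UMI counts per gene and barcode, made by the authors with Cell Ranger 7.0.0, per the file headers; the submitters' processing notes also name Seurat and mm10. The annotation and whether intronic reads or strand were used are not given in the sources. A second sample of the series was not analysed here.

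Tags were called per barcode by Otsu thresholds on the log tag counts (133.4, 186.8 and 130.5 counts); 3567 barcodes with several tags and 479 with none were left out. No doublet caller was run, and about 1795 same-tag doublets (15.3% of the cells kept) are expected to remain. Cells were clustered with scanpy 1.11.5 (2000 variable genes, 30 components, Leiden resolution 1.0) without integrin, Cd27, Klrg1, cell cycle, ribosomal, mitochondrial, oxidative phosphorylation and potassium channel genes, and named from marker lists. Of the clusters left unnamed, the one led by Jchain and Hbb-bs and the one led by Il23r and Ccr6 were left out of their best class after they had been seen. Summed counts were tested with edgeR 4.0.16 (TMM, filterByExpr, quasi-likelihood). The tag is a block because every set was cut from the same 3 tags of 1 library. DESeq2 1.42.0 was an alternative. The values of 1 alternative of the ILC1 comparison are not reported here; it stays in the counts of alternatives.

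On simulated counts for 9844 genes of the NK-like fit, 23.2% of 1.5-fold and 73.5% of 2-fold changes were recovered. For 9774 genes of the ILC1 fit these were 15.5% and 53.1%. The simulation gave every gene the same dispersion and no tag effect, so it does not measure recovery for the 8 members. The members, gates, lists and tests were chosen with earlier results of these data known. Named genes are the 8 members, other integrin genes of at least 20 CPM in some class, up to 8 called machinery genes per comparison by size of change, the 3 genes most like each member, and gate genes. Itgad, Cxcr6, Tnfsf10, Cerkl and Pelo were named after their values were seen or as checks. Intervals are 95%; those of levels and shares cover counting error only, and those of log2 differences come from the edgeR fit over tags, and 3 UMIs are the upper limit that a count of 0 allows.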

Additional observations from a re-analysis of the deposited data

How the results depend on the processing

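Itgam, Itgb2 and Itga4 between Cd27-only and Klrg1-only NK-like cells, and all members but Itgal between ILC1-gated and NK-gated cells, kept their direction and call under every alternative run (13 and 15). The cause was not tested for the changes that follow. The sets share their tags, so the tag is the replicate block. With no replicate block, the Cd27-only set had 486 higher and 285 lower genes against the Klrg1-only set, in place of 794 and 580, and Itgal (log2 -0.19, edgeR adjusted p = 0.16), Itgb1 (-0.15, 0.15) and Itgb7 (-0.28, 0.20) were not called; it changed no other member's call in this comparison. For the steps, no block gave 24 genes lower in Cd27-only than in double-positive cells (41 with it) and 21 higher and 13 lower in double-positive than in Klrg1-only cells (59 and 39), where Itga4 (-0.35, adjusted p = 0.087) and Itgb2 (-0.43, 0.085) were not called; Itgam there lost its call without the deepest 10% of cells (-0.44, 0.060). Itgal in ILC1-gated cells (-0.28) lost its call with no block (-0.27), with DESeq2 (-0.28), without the deepest 10% of cells (-0.23), with Il7r against Eomes alone (-0.11), with clusters in place of gates (-0.15), without cells with a mural marker UMI (-0.23), with gated cells of the ILC1-like and NK-like clusters alone (-0.19) and in each leave-one-out fit (-0.34 to -0.24). DESeq2 gave 366 genes lower in Cd27-only than in Klrg1-only cells and left Itgb7 uncalled (-0.27, adjusted p = 0.068). It gave 64 lower in the first step, 100 higher in the second, and 519 higher and 317 lower for ILC1-gated cells (866 and 724 with edgeR), where clusters gave 1499 and 1277. Gates of at least 2 UMIs gave 394 genes higher and 271 lower, with Itgal uncalled (-0.16, adjusted p = 0.39). Itga1 in Cd27-only cells (-0.95, not called) passed with no filter on low counts (-0.95), unthinned gates (-1.33), without the deepest 10% (-1.10) and over all clusters of best NK score (-1.06). Unthinned gates gave 92 genes lower in the first step, and 386 higher and 168 lower in the second, and called Itga4 (-0.15, adjusted p = 0.041) and Itgb2 (-0.27, 0.0011) in the first. Itga2 changed sign without the deepest 10% (0.01) and, chosen after seeing the data, without the cycling cluster (0.01). Leaving out 1 tag gave 369 to 433 genes lower in Cd27-only than Klrg1-only cells, 25 to 109 higher and 21 to 37 lower in the first step and 12 to 58 higher and 17 to 36 lower in the second; log2 differences ran from -0.22 to -0.17 for Itgal, -0.16 to -0.14 for Itgb1, -0.40 to -0.18 for Itgb7 and -0.08 to 0.05 for Itga2. Itga4 in the first step ran from -0.16 to 0.06, positive without tag 2. Of the class levels recomputed under alternatives, 35 moved by more than 1 SD of the tags and 413 did not. With no filter on low counts the median of all genes between ILC1-gated and NK-gated cells moved by -0.11 on the log2 scale. A gene of few UMIs, as Itga1 in the double-positive set (6 UMIs), is limited by depth.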

Other observations

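Of the 19 other integrin subunits, 3 were at 20 CPM or more in NK-like cells (Itgax 111, Itgav 80.2 and Itga6 26.1 CPM, tags pooled), and 12 were so in some class. Itgax (CD11c), another alpha partner of Itgb2, was higher in Cd27-only than in Klrg1-only cells, at 122 ± 11.9 against 88.1 ± 9.94 CPM (log2 0.51, edgeR adjusted p = 9.1e-06), the opposite direction to Itgam, and lower in ILC1-gated than in NK-gated cells (65.3 ± 6.59 against 121 ± 9.46 CPM, log2 -0.91, edgeR adjusted p = 4.4e-06). Itgad (CD11d), also a partner of Itgb2, was at 20.8 ± 5.02 against 11.6 ± 1.78 CPM in Cd27-only and Klrg1-only cells (log2 0.93, edgeR adjusted p = 0.0016), a call lost without tag 2 (0.64, adjusted p = 0.22). Itgb3, the beta subunit of the vitronectin receptor and of the platelet fibrinogen receptor, was 11.2-fold higher in ILC1-gated cells, at 62.4 ± 6.98 against 5.50 ± 0.911 CPM (log2 3.48, edgeR adjusted p = 3.9e-14), and was called under each of 15 alternatives. Its partner Itgav was at 109 ± 41.5 against 85.4 ± 1.33 CPM (log2 0.32, edgeR adjusted p = 0.18), and Itga2b, its platelet partner, was at 999 CPM in platelet or megakaryocyte-like barcodes and 3.07 CPM in ILC1-like cells. Itga6, a laminin receptor subunit, was lower in ILC1-gated cells (12.5 ± 7.41 against 28.5 ± 6.86 CPM, log2 -1.16, edgeR adjusted p = 0.0028; not called with DESeq2, adjusted p = 0.10).

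Some clusters that were given no name had integrin patterns of their own, described without a test. A cluster of 683 cells with NK as its best score was left unnamed, and so out of the NK-like cells, for its low depth (median 1393 UMIs). Its first leading genes were Gm42418, Fgf13 and Btbd11. The part of its depth and RNA make-up in the levels that follow was not tested. The cluster had Itga2 at 987 CPM (exact Poisson 95% interval 930.1 to 1046) and Itga4 at 2145 CPM (2061 to 2231). Both were above the highest NK-like cluster, at 596 and 1753 CPM. Its Itgb2 was at 210.4 CPM (185 to 239), against 256 CPM (237 to 276) in the lowest NK-like cluster. The cluster of 410 cells led by Cd3d and Cd3g, with NK markers as its best score, had Itgam at 15 CPM (exact Poisson 95% interval 10.9 to 20.1) and Itga2 at 163 CPM (148 to 178), both near the ILC1-like levels of 16.4 and 166 CPM. Its Itga1, at 3.41 CPM (1.64 to 6.27), and Itgb7, at 50.1 CPM (42.4 to 58.9), were below the ILC1-like 82.2 and 214 CPM. The cluster of 63 cells in which Il7r, Il23r, Ccr6 and Cd4 led had Itgb7 at 227 CPM (181 to 282) but no Itga1 UMI, for which the limit of 3 UMIs is 8.32 CPM and the exact Poisson upper bound 10.2 CPM.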
